A study of Mus musculus with 23 samples.

Results

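Potassium channel genes were examined in RNA sequencing libraries of the adult mouse sciatic nerve (SN) after crush injury and after loss of the microRNA-processing genes Dicer1 or Dgcr8. The members were the protein-coding genes whose GRCm38 symbol starts with Kcn, with the counts of all transcripts of a gene added up. They numbered 94 of 21458 protein-coding genes, and all 94 were listed in both experiments. By type they comprised 40 voltage-gated alpha subunits, 15 inward rectifiers, 14 two-pore domain channels, 8 calcium- or sodium-activated channels and 17 auxiliary subunits.

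In the crush experiment, wild-type C57BL/6J males aged 2 months had one SN crushed at the sciatic notch, and the piece 1 to 8 mm distal to the crush was taken at 3 days post crush (dpc). It gave 4 crushed nerves, 4 contralateral nerves and 3 uncrushed nerves of surgery controls. By the study's methods the contralateral nerves were the uninjured ones of the operated mice, so crushed and contralateral nerves share animals, but the labels do not say which nerves came from the same mouse. In the second experiment, inducible knockout (iKO) mice carried P0-CreERT2 (-/+) and were homozygous for floxed Dicer1 or floxed Dgcr8, while their controls carried the same floxed alleles without the Cre transgene (P0-CreERT2 -/-). Mice of both kinds, of either sex, received tamoxifen at 8 to 10 weeks of age and were analysed 3 months post tamoxifen, with 3 mice in each of the 4 groups. The Cre transgene is active in myelinating Schwann cells (SCs), so other cells of the nerve kept the floxed genes intact. Mutants were chosen for an affected nerve morphology, because the phenotype was not fully penetrant. The labels name different library kits for the experiments, so levels were compared only within an experiment.

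Potassium channels let potassium leave or enter a cell and so set its resting potential and the duration of its action potential. Voltage-gated channels open on depolarisation. In myelinated axons the Kv1 channels encoded by Kcna1 and Kcna2 are clustered beneath the myelin beside the node, in the juxtaparanode. Inward rectifiers and two-pore domain channels carry the resting conductance, and in glia they also take up potassium released by active axons. Calcium- and sodium-activated channels follow the ion inside the cell. Auxiliary subunits carry no current of their own and change how alpha subunits open.

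The libraries held 6617716 to 12806066 counts in the crush experiment and 5594859 to 10143244 in the iKO experiment. A count of 3, used here as the floor of detection, was worth 0.234 to 0.453 CPM (counts scaled to library size) in the first and 0.296 to 0.536 CPM in the second. Dicer1 was at 88.1, 87.4 and 90.5 CPM in the Dicer controls and at 81.3, 82.1 and 82.0 CPM in Dicer iKO nerves. Dgcr8 was at 38.4, 35.4 and 41.8 CPM in the Dgcr8 controls and at 39.4, 54.0 and 41.8 CPM in Dgcr8 iKO nerves. Neither total checks the deletion, since the floxed part of the gene is not counted apart and the other cells of the nerve keep both alleles. By PCR the paper reports less Dicer and Dgcr8 mRNA in the respective mutants, and less of an abundant microRNA in both. The 13 markers of myelinating SCs were detected in every group, and their summed level was 46020 to 48880 CPM in uncrushed, 47690 to 62010 in contralateral and 1284 to 1972 in crushed nerves. The summed level of the 10 macrophage markers was 158 to 185, 115 to 216 and 774 to 1769 CPM in the same groups. In this whole tissue, fewer cells of a type and less RNA per cell cannot be told apart.

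Most of the potassium channel RNA of a control nerve came from a few genes. On the length-corrected FPKM scale, the highest mean levels in uncrushed nerves were those of Kcnk1 (52.6 ± 3.16 FPKM, SD, n = 3), Kcnmb4 (43.1 ± 13.3), Kcna2 (38.9 ± 4.29) and Kcna1 (35.4 ± 5.54). Kcnk1 encodes the two-pore domain channel TWIK1, and Kcnmb4 the beta 4 subunit of the large-conductance calcium-activated BK channel. The next were Kcna6, another Kv1 alpha subunit (11.9 ± 1.80 FPKM), and Kcnk2, the mechanosensitive two-pore domain channel TREK1 (9.09 ± 1.63 FPKM). Neighbours in this order lay within each other's spread from Kcnmb4 to Kcna1, whereas Kcna6 lay far below Kcna1.

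The first 4 of these genes together held 64.0% ± 3.25 (SD, n = 3) of the FPKM summed over the 94 members in uncrushed nerves and 69.3% ± 2.43 (n = 4) in contralateral nerves. In the controls of the iKO experiment they were again the 4 highest, with Kcnk1 at 78.9 ± 23.5 FPKM in the Dicer controls and 104 ± 9.74 FPKM in the Dgcr8 controls (n = 3 each). At the other end, 36 members had a mean under 1 CPM in uncrushed nerves, and 9 reached a mean of 10 CPM. A member was taken as expressed in a comparison when it passed edgeR's filter on low counts, and 62 of the 94 did so in at least one comparison. The other 32 were not tested anywhere.

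The BK channel genes were far apart in level. Kcnmb4 was among the highest members, but Kcnma1, the only BK alpha subunit gene, was at 0.187 ± 0.0945 FPKM in uncrushed nerves (n = 3), 0.783 ± 0.150 FPKM in the Dicer controls and 0.603 ± 0.110 FPKM in the Dgcr8 controls. In the crush experiment its counts ran from 2 to 12 per library, it ranked 79 of 94 in uncrushed nerves, and it did not pass the filter. Exons of Kcnmb4 overlap the antisense genes Kcnmb4os1 and Kcnmb4os2, and the strand setting of the counting is not given in the sources used here.

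**Figure D1:**
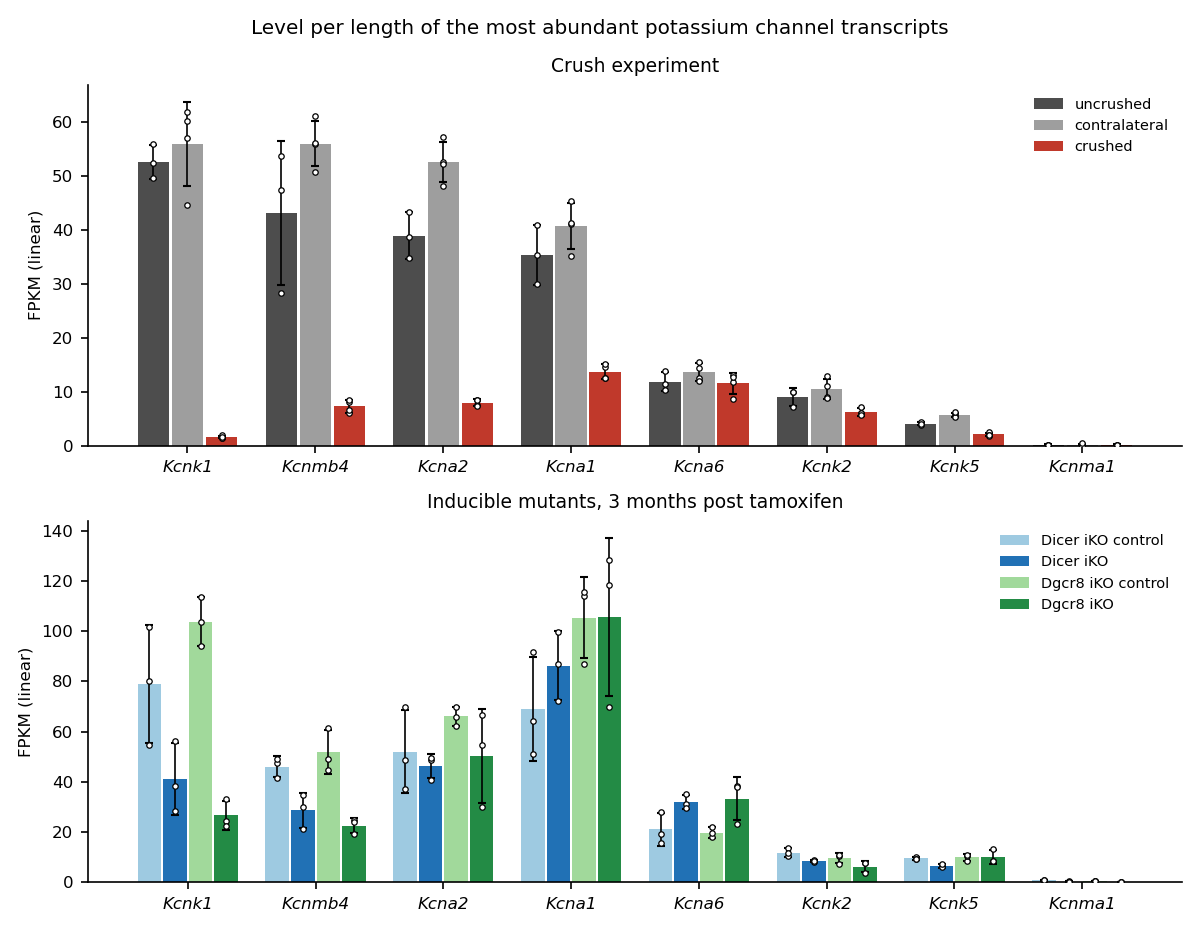
Level per length (FPKM, linear axis) of Kcnk1, Kcnmb4, Kcna2, Kcna1, Kcna6, Kcnk2, Kcnk5 and Kcnma1 in the crush experiment (upper panel) and the iKO experiment (lower panel). Bars are group means, whiskers the SD and circles single libraries. In crushed nerves the bars of Kcnk1, Kcnmb4, Kcna2 and Kcna1 are far below those of both controls, and Kcna6 is not; in the mutants Kcnmb4 is below its controls, Kcnk1 is below them in the Dgcr8 experiment and overlaps them in the Dicer experiment, and the libraries of Kcna1 and Kcna2 overlap their controls. Kcnma1 is near 0 in both experiments.

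Crushed nerves were compared with uncrushed and with contralateral nerves to ask which channel genes are lower and which higher after crush, when myelin gene RNA falls. Other markers changed in the same nerves. Neuronal markers summed to 76.7 to 93.2 CPM in uncrushed and 17.2 to 22.4 CPM in crushed nerves. Proliferation markers summed to 34.3 to 37.5 and 704 to 1060 CPM in the same order. A change after crush therefore cannot be tied to myelin alone. A gene was called where its level differed at least 2-fold with an adjusted p of at most 0.05 (edgeR's quasi-likelihood test, Benjamini-Hochberg over all genes tested). Against uncrushed nerves, 54 members were tested, 27 were lower and 4 were higher (7.41%). Of all 17479 genes tested, 21.1% were called lower and 15.3% higher. Against contralateral nerves, 46 members were tested, 14 were lower (30.4%) and 5 were higher (10.9%), beside 13.6% lower and 14.6% higher of all 16667 genes. The members' median log2 fold change was -1.02 against uncrushed and -0.40 against contralateral nerves, and that of all genes tested was -0.03 and -0.06. These comparisons share the crushed libraries.

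Of the 46 members tested in both comparisons, 14 (30.4%) were lower in both and 4 (8.7%) were higher in both. Of all 16556 genes tested in both, 11.3% were lower and 13.3% higher in both. The channels lost included the voltage-gated Kcna1, Kcna2, Kcns3 and Kcnh8, the two-pore domain Kcnk1 and Kcnk5, the inward rectifiers Kcnj12, Kcnj8, Kcnj15 and Kcnj3, the sodium-activated Kcnt1, the small-conductance calcium-activated Kcnn1, and the auxiliary Kcnmb4. The channels gained were Kcnn4, Kcnj10, Kcnk6 and Kcnab3. Summed over the 94 members, the FPKM was 265 ± 21.3 in uncrushed, 295 ± 13.0 in contralateral and 114 ± 4.42 in crushed nerves. In crushed nerves the former leading 4 held 26.9% ± 1.48 of that sum (n = 4).

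Kcnk1 showed the largest loss. This channel passes a weak inwardly rectifying background current. It was at 119, 127 and 129 CPM in uncrushed nerves and at 96.6, 136, 132 and 127 CPM in contralateral nerves. In the 4 crushed nerves it was at 3.13, 3.18, 3.94 and 3.30 CPM. Every crushed library was below every control library by a wide margin. The level was 34.2-fold lower than in uncrushed nerves (log2 fold change -5.10 ± 0.11 SE, adjusted p = 2.68e-11) and 35.9-fold lower than in contralateral nerves (-5.17 ± 0.14, adjusted p = 1.10e-12; edgeR). From first place by FPKM in uncrushed nerves Kcnk1 moved to place 16 in crushed nerves. Over the same nerves Mbp, which encodes myelin basic protein, fell by 3.91 on the log2 scale against uncrushed nerves.

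Kcnmb4 was at 53.1, 47.4 and 33.9 CPM in uncrushed, 50.2, 55.7, 51.3 and 49.5 CPM in contralateral and 6.5, 6.03, 6.41 and 6.69 CPM in crushed nerves. The groups did not overlap, and the uncrushed library at 33.9 CPM was the lowest control. The fall was 6.57-fold against uncrushed nerves (adjusted p = 2.77e-08, edgeR) and 7.98-fold against contralateral nerves (adjusted p = 4.71e-12, edgeR).

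The starts of the largest loss, of the most abundant auxiliary subunit lost and of the gained gene with the largest change in the mutants are given here, because these members carry the comparisons. Each line gives the 250 bases before and 20 bases from the RefSeq transcription start on GRCm38.p6, in the sense of the gene. They lie at chr8:125994852-125995121 (+ strand, Kcnk1), chr10:116473504-116473773 (- strand, Kcnmb4) and chr1:172340960-172341229 (+ strand, Kcnj10). Capitals mark matches to TGANTCA (AP-1), GCGTGGG (EGR) or ACAAAG (SOX) on either strand.
Kcnk1: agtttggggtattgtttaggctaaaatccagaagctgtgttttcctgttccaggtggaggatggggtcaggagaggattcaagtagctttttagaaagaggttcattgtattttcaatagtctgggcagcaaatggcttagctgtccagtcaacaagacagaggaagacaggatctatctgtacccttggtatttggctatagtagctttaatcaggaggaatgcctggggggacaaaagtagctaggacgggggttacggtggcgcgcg
Kcnmb4: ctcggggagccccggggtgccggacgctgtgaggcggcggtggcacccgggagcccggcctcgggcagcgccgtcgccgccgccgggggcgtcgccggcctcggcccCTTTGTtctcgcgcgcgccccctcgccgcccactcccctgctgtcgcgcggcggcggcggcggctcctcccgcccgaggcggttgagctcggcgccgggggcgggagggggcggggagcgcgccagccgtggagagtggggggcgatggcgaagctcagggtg
Kcnj10: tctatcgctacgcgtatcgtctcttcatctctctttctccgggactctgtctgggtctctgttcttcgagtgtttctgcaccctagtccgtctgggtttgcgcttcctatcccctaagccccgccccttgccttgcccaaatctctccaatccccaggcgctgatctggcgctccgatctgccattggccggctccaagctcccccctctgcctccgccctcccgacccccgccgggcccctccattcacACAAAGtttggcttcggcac

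Kcnmb4 and Kcnj10 each held one match to ACAAAG, starting 143 bases before the start in Kcnmb4 and at the first transcribed base in Kcnj10. Kcnk1 held no capitals and 2 matches to CANNTG (E-box), which was searched as well. Over the whole RefSeq window, 250 bases before and 50 from the start, 13 promoters of 11 lost members were found. Of these 13, 4 held ACAAAG (30.8%), 2 held GCGTGGG (15.4%), 0 held TGANTCA and 11 held CANNTG (84.6%). Of all 32851 promoters in the table, 18.7% held ACAAAG, 5.04% GCGTGGG, 7.81% TGANTCA and 72.3% CANNTG. With 2 promoters of gained members matched, no share was read for that group. These are matches of letters and not binding sites.

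Kcna1 and Kcna2, the juxtaparanodal Kv1 alpha subunits, fell to different degrees. Their channels lie in the axon, but which cells of the nerve hold this RNA was not tested. Kcna2 was at 105, 125 and 119 CPM in uncrushed, 139, 156, 140 and 131 CPM in contralateral and 22, 20.8, 21.5 and 17.8 CPM in crushed nerves. Kcna1 was at 291, 376 and 352 CPM, at 307, 403, 365 and 370 CPM, and at 104, 128, 124 and 99.7 CPM in the same order. For both genes every crushed library was below every control. Kcna2 fell 5.26-fold (log2 fold change -2.39 ± 0.10 SE, adjusted p = 1.43e-09) and Kcna1 2.77-fold (-1.47 ± 0.11, adjusted p = 3.17e-07) against uncrushed nerves by edgeR. Kcna6, which can assemble with both and whose exons the antisense gene Gm26673 overlaps, was not called. Its level was 40.3 to 60.1 CPM in crushed, 58.0 to 68.0 in uncrushed and 60.9 to 81.1 in contralateral nerves, and the log2 differences were -0.11 ± 0.13 (SE) and -0.36 ± 0.12. The crushed libraries overlapped the uncrushed and lay just below the contralateral libraries.

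**Figure D2:**
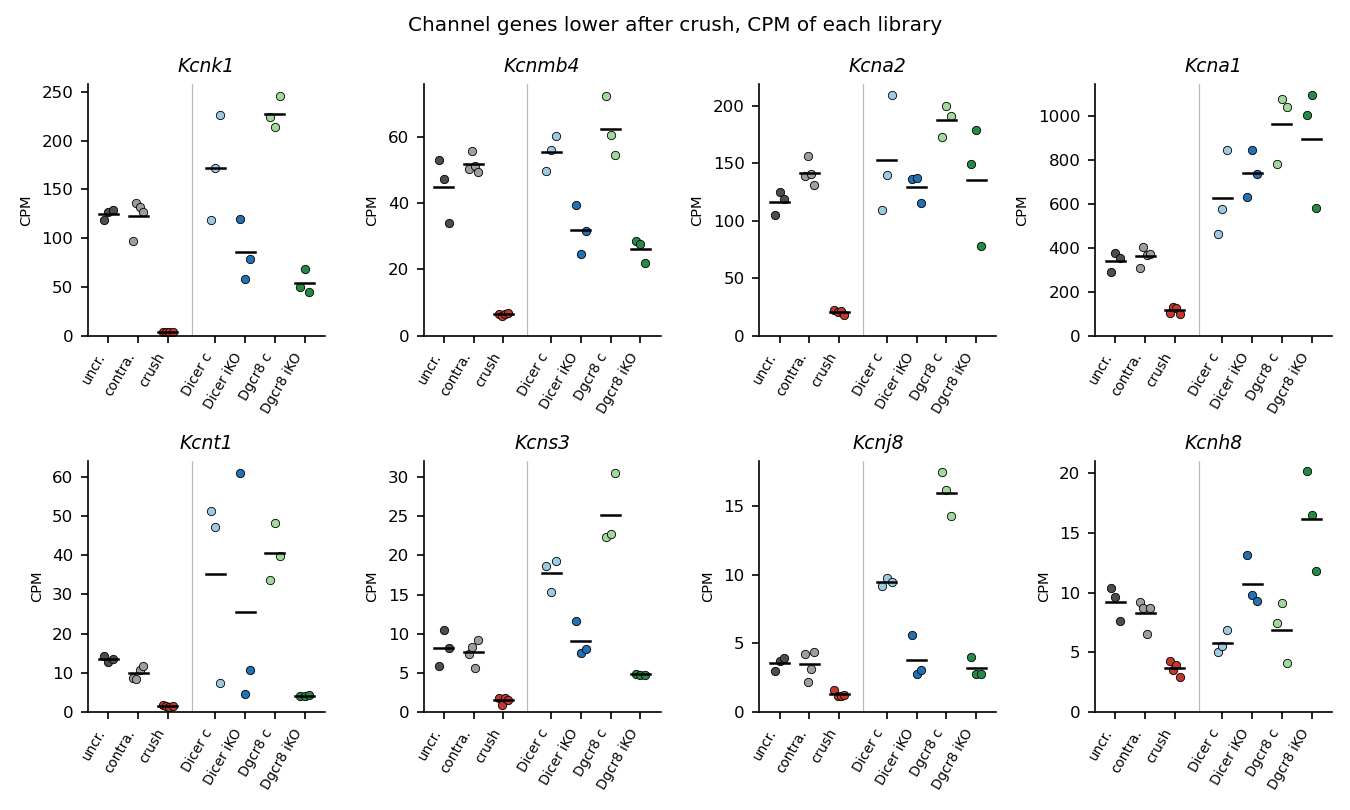
CPM of each library (points, linear axes) with the group mean (line) for 8 channel genes lower in crushed nerves than in both controls; c stands for control, and the grey line divides the crush from the iKO experiment. Crushed libraries lie below the controls in every panel. In the mutants Kcns3, Kcnj8 and Kcnmb4 are below their controls, Kcnh8 is above them, Kcna1 and Kcna2 overlap them, and Kcnt1 is low in 2 of 3 Dicer iKO libraries and in 1 of 3 Dicer controls.

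Among the other voltage-gated members, Kcns3, a silent subunit that modifies Kv2 channels, was at 5.93, 10.5 and 8.18 CPM in uncrushed, 7.45, 8.33, 5.62 and 9.23 CPM in contralateral and 1.77, 0.897, 1.83 and 1.51 CPM in crushed nerves. The groups did not overlap, and the fall was 5.03-fold against uncrushed nerves (adjusted p = 1.35e-05, edgeR). Kcnh8, an ELK channel, went from 10.4, 9.63 and 7.67 CPM in uncrushed and 9.24, 8.72, 6.52 and 8.72 CPM in contralateral nerves to 4.25, 3.51, 3.94 and 2.92 CPM. That was 2.38-fold and 2.24-fold lower (adjusted p = 9.85e-05 and 2.18e-05, edgeR), again without overlap.

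Kcnt1 encodes SLACK, a channel opened by intracellular sodium. It was at 14.3, 12.8 and 13.5 CPM in uncrushed, 8.68, 8.33, 10.6 and 11.8 CPM in contralateral and 1.77, 1.63, 1.19 and 1.41 CPM in crushed nerves. The fall was 8.29-fold against uncrushed (adjusted p = 2.92e-08) and 6.39-fold against contralateral nerves (adjusted p = 9.87e-09; edgeR), with no overlap. The inward rectifier Kcnj12 (Kir2.2) fell from 8.61 ± 1.21 CPM in uncrushed to 1.55 ± 0.516 CPM in crushed nerves (5.08-fold), and it was 6.27-fold lower than in contralateral nerves. Kcnj2, which encodes the related Kir2.1, was at 6.02 ± 0.964 CPM in uncrushed, 6.99 ± 0.516 in contralateral and 6.17 ± 0.935 CPM in crushed nerves and was not called (log2 difference from uncrushed nerves 0.12 ± 0.19 SE).

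Kcnj8 encodes Kir6.1, a subunit of ATP-sensitive potassium channels known from pericytes and vascular smooth muscle. It was at 2.97, 3.75 and 3.92 CPM in uncrushed, 4.24, 2.20, 3.11 and 4.41 CPM in contralateral and 1.61, 1.14, 1.19 and 1.23 CPM in crushed nerves. The libraries did not overlap, and the fall was 2.5-fold and 2.62-fold (adjusted p = 0.000708 and 0.000325, edgeR). The summed level of the 7 pericyte and smooth muscle markers was 244 to 284 CPM in crushed, 282 to 348 in uncrushed and 325 to 359 in contralateral nerves, and of 6 markers tested 1, Tagln, was called lower. The part of these cells in the fall of Kcnj8 was not tested. Kcnk5, the acid-sensitive channel TASK2, fell from 14.5 ± 1.49 CPM (uncrushed) and 18.8 ± 1.45 (contralateral) to 6.45 ± 1.01. The lost members Kcnj15, Kcnn1 and Kcnj3 were below 5 CPM on average in both controls and fell 2.07-fold to 2.73-fold. For Kcnj3 the crushed and contralateral libraries overlapped (0.802 to 1.70 against 1.26 to 3.38 CPM), and an antisense gene overlaps its exons. Its call against contralateral nerves was lost without contralateral replicate 3 or 4 or crushed replicate 1 or 2 (log2 fold changes -0.99 to -0.89). Against the same nerves Kcnj15 lost its call without contralateral replicate 1 (-0.92) or crushed replicate 2 (-0.76), and Kcnn1 without contralateral replicate 2 (-0.97). Against uncrushed nerves Kcnk5 lost its call without uncrushed replicate 1 (-0.94).

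A further 13 members were called lower against uncrushed nerves and were not called against contralateral nerves. They were Kcnb2, Kcnc1, Kcne3, Kcnip1, Kcnj1, Kcnj14, Kcnj16, Kcnj6, Kcnk10, Kcnn2, Kcnn3, Kcnq3 and Kcnv2, with uncrushed means of 1.69 to 8.57 CPM. Against contralateral nerves 7 of the 13 were tested, with log2 fold changes of -0.94 to -0.50, and 6 did not pass the filter. Of those 7, Kcnb2, Kcnq3, Kcnn3, Kcnn2 and Kcnip1 were lower there as well, by less than 2-fold, with adjusted p-values of 0.00273, 0.00402, 0.00564, 0.00885 and 0.00923 in this order (edgeR). In all 13 the contralateral mean lay below the uncrushed mean, with a median log2 difference of -0.84. The choice of the 13, called against uncrushed but not against contralateral nerves, favours this direction, so it is not a separate result. A lower contralateral level was also seen in other weakly expressed genes. Among all 3273 genes tested under a level of 1 on the log2 CPM scale, the median log2 difference, contralateral minus uncrushed, was -0.51, among the 5080 genes from 1 to 3 it was -0.16 and among the 9301 genes above 3 it was 0.07. For the members tested these medians were -0.98 (15 of 15 lower in contralateral nerves), -0.33 (24 of 28) and 0.15 (3 of 11). A weak gene can pass the filter through the uncrushed libraries alone, as Kcne3 could (0.797 CPM in contralateral, 1.69 CPM in uncrushed nerves). A lower contralateral level is then partly set by the filter, so the shares at low levels are no result about the members. Whether the members differ from other genes of their level was not tested. As they were not called against both controls, these 13 are not counted among the channels lost.

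The controls themselves were compared. Of 54 members tested between contralateral and uncrushed nerves, none was called (edgeR), while 21 had an unadjusted p under 0.05. DESeq2 called none either and gave 17 such p-values. Of all 17654 genes tested 0.0% were called in each direction. Of these, 3154 had an unadjusted p under 0.05. Members' median log2 difference was -0.34, and 42 of 54 were lower in contralateral nerves, beside a median of -0.02 and 9291 of 17654 lower over all genes. The limit set by the filter, given above, holds for the weak members among them.

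**Figure D3:**
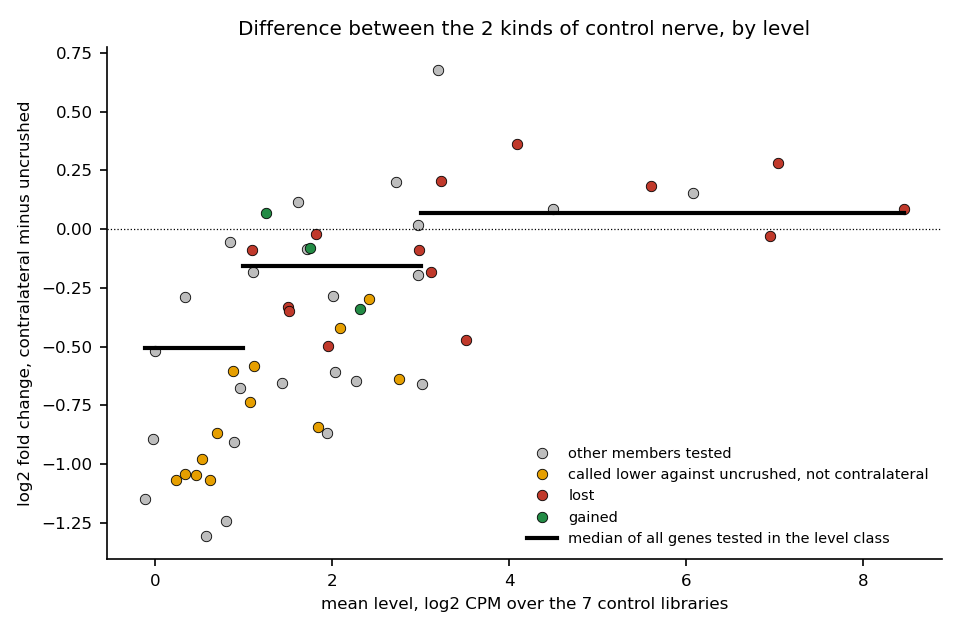
Log2 fold change, contralateral minus uncrushed, of the 54 potassium channel genes tested (points) against their mean level in the 7 control libraries (log2 CPM), coloured by their call after crush. Thick lines give the median of all genes tested in each of 3 level classes. The 13 genes called lower against uncrushed but not contralateral nerves (orange) lie below 0 at low levels, and the abundant lost genes (red) lie near 0. The way the 13 were chosen favours their position below 0.

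Of the channels gained after crush, Kcnn4 had the largest rise against uncrushed nerves. It encodes KCa3.1, the intermediate-conductance calcium-activated channel known from blood and immune cells. Kcnn4 was at 1.89, 2.75 and 2.39 CPM in uncrushed, 2.55, 2.91, 2.11 and 2.15 CPM in contralateral and 14.2, 17.7, 13.5 and 9.90 CPM in crushed nerves. The crushed libraries were all above the controls, by 6.41-fold (log2 fold change 2.68 ± 0.23 SE, adjusted p = 6.83e-07) and 5.66-fold (2.5 ± 0.19, adjusted p = 2.39e-08; edgeR). By FPKM it shared place 4 with Kcnab2 in crushed nerves.

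Kcnk6, which encodes the two-pore domain channel TWIK2, was at 3.51, 3.13 and 3.75 CPM in uncrushed, 3.40, 3.14, 2.61 and 4 CPM in contralateral and 6.98, 8.80, 8.71 and 9.71 CPM in crushed nerves. It rose 2.65-fold and 2.62-fold with no overlap (adjusted p = 3.24e-05 and 4.26e-06, edgeR). Kcnj10 encodes Kir4.1, the channel by which astrocytes and satellite glia take up potassium. It was at 4.23, 6.63 and 6.13 CPM in uncrushed, 3.96, 3.77, 4.12 and 5.95 CPM in contralateral and 13.0, 13.1, 12.3 and 8.67 CPM in crushed nerves. The groups did not overlap, and the rise was 2.27-fold and 2.69-fold (adjusted p = 0.000190 and 2.95e-06, edgeR).

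Kcnab3, a cytoplasmic beta subunit of Kv1 channels, rested on few counts. Crushed libraries held 35, 23, 29 and 26 counts, uncrushed libraries 7, 4 and 2, and contralateral libraries 2, 3, 1 and 1. Kcnab3 passed the filter through the crushed libraries alone, so a member this low in every group would not have been tested. The ratio of summed counts per library size was 4.70 against uncrushed nerves (95% exact interval 2.64 to 9.09) and 15 against contralateral nerves (7.06 to 38.2), both intervals covering counting error only. Kcnab3os, an antisense gene, overlaps its exons. Kcna3, the Kv1 channel of lymphocytes and macrophages, was called higher against contralateral nerves alone (2.32-fold, 1.88 ± 0.642 against 0.804 ± 0.254 CPM, adjusted p = 0.00544, edgeR), and the uncrushed libraries spread from 0.360 to 2.05 CPM. In the contralateral comparison Kcna3 passed the filter through the crushed libraries and would not have passed on the contralateral ones.

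All 10 macrophage markers tested were higher in crushed nerves against each control, with a median log2 fold change of 2.78 and 3.01, and none was at 0 counts in any group. Their part in the rise of Kcnn4, Kcnk6 and Kcna3 was not tested. Among the 10 tested markers of non-myelinating, immature or repair SCs, 5 were higher against uncrushed nerves, among them Ngfr, Gdnf and Jun, and Cdh2 and Scn7a were lower.

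**Figure D4:**
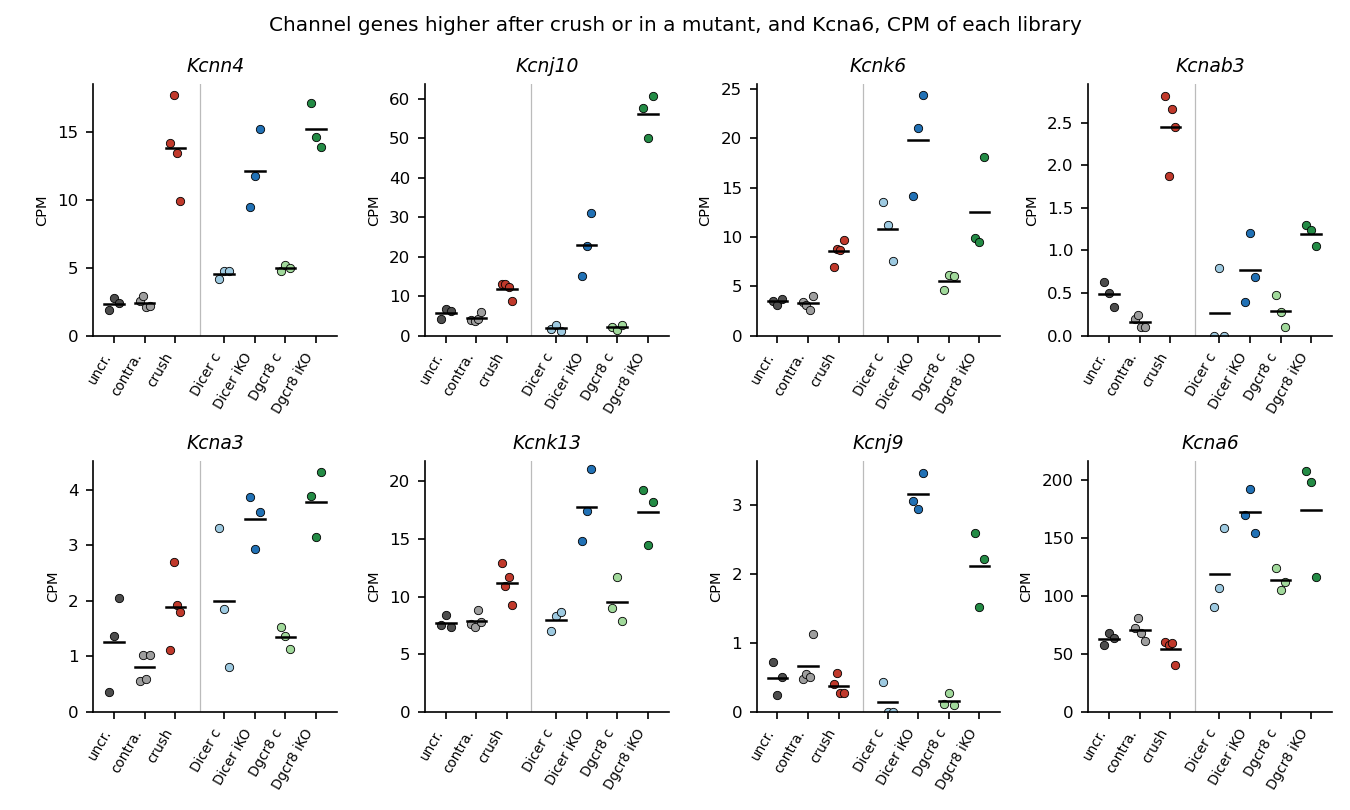
CPM of each library (points, linear axes) with the group mean (line) for 7 channel genes called higher in at least one comparison and for Kcna6; c stands for control, and the grey line divides the experiments. Kcnn4, Kcnj10, Kcnk6 and Kcnab3 are above both controls in crushed nerves. Kcnj10 and Kcnj9 rise in both mutants from controls near 0, and Kcnj9 stays low after crush.

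The mutants were compared with their controls to ask which of these changes accompany loss of microRNA processing in adult myelinating SCs. The 13 myelinating SC markers summed to 52350 to 54870 CPM in the Dgcr8 controls and 16120 to 31790 CPM in the mutants. In the Dicer experiment the sums were 33900 to 56630 and 25640 to 33040 CPM. Of the 13 markers, 7 were called lower in Dgcr8 iKO and 0 in Dicer iKO nerves, whereas all 13 were lower against each crush control. In Dicer iKO nerves 39 members were tested, 4 were higher (10.3%) and 2 lower (5.13%), beside 7.37% higher and 1.64% lower of all 13045 genes. In Dgcr8 iKO nerves 42 members were tested, 7 were higher (16.7%) and 11 lower (26.2%), beside 13.4% higher and 6.99% lower of all 13252 genes. The members' median log2 fold change was -0.23 in Dicer iKO and -0.02 in Dgcr8 iKO nerves, and that of all genes was -0.01 in each. In a fit with an interaction term, no member of 45 tested differed between the mutants' effects (edgeR, adjusted p at most 0.05), while 8 had an unadjusted p under 0.05. DESeq2 called Kcns3 in that fit, and without Dicer control replicate 3 edgeR called Kcnj2, Kcnj13 and Kcns3. Of all 13552 genes tested, 0.00738% were called in each direction.

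Of the 14 channels lost after crush, 11 were tested in each mutant. In Dgcr8 iKO nerves 5 were lower, namely Kcnk1, Kcnt1, Kcns3, Kcnj8 and Kcnmb4, and Kcnh8 was higher. In Dicer iKO nerves Kcnj8 alone was lower. Of all 1864 genes lower against both crush controls, 1468 were tested in Dgcr8 iKO nerves and 43.2% were called lower there, and of 1460 tested in Dicer iKO nerves 9.93% were. The members' shares lay near these. Dicer iKO replicate 1 differed from its group. Without it 7 members were lower in Dicer iKO nerves, among them Kcnk1, Kcns3, Kcnj8, Kcnh1, Kcnh5 and Kcnma1, while without replicate 2 or replicate 3 there were 0 and without control replicate 2 there was 1. Kcnk1 was at 224, 214 and 246 CPM in the Dgcr8 controls and at 49.5, 68.3 and 45 CPM in the mutants, a 4.2-fold fall with no overlap (adjusted p = 6.38e-06, edgeR). In the Dicer controls it was at 119, 172 and 226 CPM and in the mutants at 120, 58.0 and 78.8 CPM. These groups overlapped, and the 2.01-fold lower level had an adjusted p of 0.0515 (edgeR), so that it was not called. Kcnk1 was called lower in some other fits and not in others. It was not called with protein-coding genes only, with at least 10 counts in every sample, or with replicate number as a block. Nor was it called at an adjusted p of at most 0.01, or without control replicate 2 or 3, or iKO replicate 2 or 3. DESeq2 called it (log2 fold change -1.02, adjusted p = 0.00524), as did edgeR with all groups in one fit (-1.01, adjusted p = 0.0144), without a count filter (adjusted p = 0.0389), with RLE normalization (adjusted p = 0.0499) and without control replicate 1 (-1.22, adjusted p = 0.0191).

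Kcns3 was at 22.3, 22.7 and 30.6 CPM in the Dgcr8 controls and at 4.84, 4.77 and 4.78 CPM in the mutants (5.26-fold, adjusted p = 6.01e-06, edgeR). In the Dicer controls it was at 18.7, 15.3 and 19.3 CPM and in the mutants at 11.6, 7.59 and 8.03 CPM. Neither pair of groups overlapped, but the Dicer difference of -0.96 ± 0.21 (SE, log2) did not reach the 2-fold limit. Kcnmb4 went from 72.5, 60.5 and 54.5 to 28.4, 27.7 and 21.9 CPM in the Dgcr8 experiment (2.40-fold, adjusted p = 7.68e-05, edgeR) and from 49.6, 56.1 and 60.3 to 39.5, 24.5 and 31.7 CPM in the Dicer experiment (-0.79 ± 0.18 on the log2 scale, under the limit). In both experiments every mutant library was below every control.

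Kcnj8 was lower in both mutants. It was at 17.5, 16.2 and 14.3 CPM in the Dgcr8 controls and 4.01, 2.77 and 2.8 CPM in the mutants, and at 9.19, 9.79 and 9.46 CPM in the Dicer controls and 5.59, 2.76 and 3.05 CPM in the mutants. The falls were 5.02-fold (adjusted p = 1.67e-05) and 2.46-fold (adjusted p = 0.0198; edgeR) with no overlap. The Dicer call was lost without control replicate 2, iKO replicate 2 or iKO replicate 3, at log2 fold changes of -1.28, -1.11 and -1.15. Abcc9, the sulfonylurea receptor that joins Kir6.1, was called lower in Dgcr8 iKO nerves (12.8 against 26.1 CPM, adjusted p = 0.00108, edgeR) and was at 10.2 against 18.4 CPM in Dicer iKO nerves, under the 2-fold limit. After crush Abcc9 was at 15.2 CPM against 13.0 in uncrushed nerves. The 7 pericyte and smooth muscle markers summed to 707 to 781 CPM in the Dgcr8 controls and 662 to 847 CPM in the mutants. Tagln was called lower and Cspg4 higher among the 6 tested there. In the Dicer experiment the sums were 760 to 776 CPM in controls and 642 to 703 CPM in mutants.

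Kcnt1 behaved differently in the experiments. In the Dgcr8 experiment it fell from 33.8, 48.2 and 39.7 to 4.01, 4.10 and 4.32 CPM (9.75-fold, adjusted p = 7.99e-07, edgeR). In the Dicer experiment the controls were at 51.3, 47.1 and 7.30 CPM and the mutants at 61.0, 4.49 and 10.8 CPM, so that one control lay with the low and one mutant with the high libraries. The log2 difference there was -0.45 ± 0.93 (SE), and whether the mutants differ in this gene cannot be read from these libraries.

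Kcna1 and Kcna2 were not called in either mutant. Kcna1 was at 460, 574 and 844 CPM in the Dicer controls, 632, 846 and 736 in Dicer iKO, 780, 1074 and 1038 in the Dgcr8 controls and 1004, 1092 and 581 CPM in Dgcr8 iKO nerves. The log2 differences were 0.24 ± 0.23 and -0.11 ± 0.24 (SE). Kcna2 was at 109, 139 and 209, at 136, 137 and 116, at 173, 200 and 191, and at 150, 178 and 78.0 CPM in these 4 groups. The log2 differences were -0.23 ± 0.22 and -0.47 ± 0.24 (SE). For both genes the mutant and control libraries overlapped, and Dgcr8 iKO replicate 3 was the lowest Dgcr8 iKO library. That library also had the lowest summed myelinating SC markers of its group, 16120 CPM against 27000 and 31790 CPM. Kcna6 was at 119 ± 35.5 CPM in the Dicer controls, 172 ± 19.0 in Dicer iKO, 114 ± 9.48 in the Dgcr8 controls and 174 ± 50.3 in Dgcr8 iKO nerves, with groups that overlapped and differences under 2-fold.

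Kcnh8 changed in opposite directions in the experiments. Lower after crush, it rose from 7.44, 9.12 and 4.15 CPM in the Dgcr8 controls to 20.2, 16.5 and 11.8 CPM in the mutants (2.37-fold, adjusted p = 0.00465, edgeR). Without Dgcr8 control replicate 3 the log2 difference was 0.96, under the limit. In the Dicer experiment it was at 5.03, 5.55 and 6.89 CPM in the controls and at 13.2, 9.83 and 9.28 CPM in the mutants, which did not overlap either, but the log2 difference of 0.89 ± 0.23 (SE) was under the limit. The difference between the injury and the mutants was not tested, because the experiments share no samples and the labels name different library kits for them. Of the other lost members, Kcnj12 was lower at 11.6 against 20.3 CPM in the Dgcr8 experiment, under the 2-fold limit, and Kcnk5 was at 30.7 ± 8.75 against 33.1 ± 4.88 CPM there. In the Dicer experiment Kcnk5 was at 20.7 ± 2.26 against 31.3 ± 1.52 CPM with no overlap (log2 difference -0.59, adjusted p = 0.0161, edgeR), under the 2-fold limit. Kcnn1 stayed under the limit in both mutants, and Kcnj3 and Kcnj15 did not pass the filter.

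**Figure D5:**
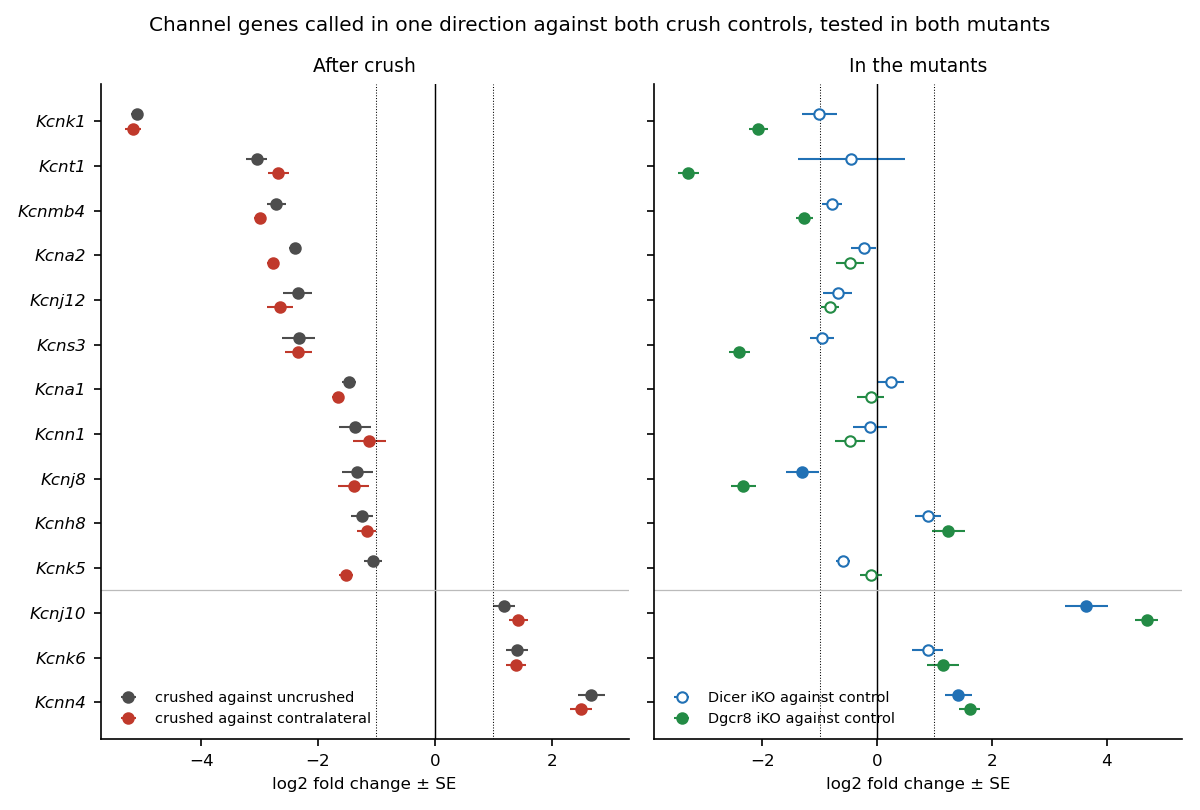
Log2 fold changes with their SE for the channel genes tested in both mutants, 11 lower (above the grey line) and 3 higher (below it) in crushed nerves than in both controls. The left panel gives the crush comparisons and the right panel the mutants; filled points were called, open points were tested and not called, and dotted lines mark the 2-fold limit. Kcnk1, Kcnt1, Kcnmb4, Kcns3 and Kcnj8 are lower in Dgcr8 iKO nerves as well, while Kcna1 and Kcna2 lie near 0 and Kcnh8 lies on the opposite side.

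Of the 4 channels gained after crush, 3 were tested in each mutant. Kcnj10 and Kcnn4 were called higher in both mutants and Kcnk6 in Dgcr8 iKO nerves alone. Of all 2208 genes higher against both crush controls, 1912 were tested in Dicer iKO nerves and 35.6% were called higher there, and of 1989 tested in Dgcr8 iKO nerves 55.9% were. Kcnj10 had the largest rise in the mutants of the members called in both experiments. It was at 2.24, 1.5 and 2.59 CPM in the Dgcr8 controls and at 57.6, 50.1 and 60.7 CPM in the mutants (25.9-fold, log2 fold change 4.70 ± 0.20 SE, adjusted p = 2.88e-07, edgeR). In the Dicer controls it was at 1.58, 2.65 and 1.22 CPM and in the mutants at 15, 22.8 and 31.2 CPM (12.5-fold, 3.65 ± 0.37, adjusted p = 0.00214, edgeR). Every mutant library was far above every control. On the Dicer control libraries alone Kcnj10 would not have passed the filter. By FPKM Kcnj10 moved from place 43 of 94 in the Dgcr8 controls to place 6 in the mutants, and from place 44 to 16 in the Dicer experiment.

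Kcnn4 was at 4.72, 5.17 and 4.98 CPM in the Dgcr8 controls, 17.1, 14.6 and 13.9 in Dgcr8 iKO, 4.17, 4.76 and 4.73 in the Dicer controls and 9.45, 11.7 and 15.2 CPM in Dicer iKO nerves. Neither pair of groups overlapped, and the rises were 3.06-fold (adjusted p = 6.32e-05) and 2.66-fold (adjusted p = 0.00754; edgeR). Kcnk6 went from 4.6, 6.12 and 6.01 to 9.91, 9.44 and 18.1 CPM in the Dgcr8 experiment (2.23-fold, adjusted p = 0.00604, edgeR, but 0.79 on the log2 scale and not called without iKO replicate 3) and from 13.5, 11.2 and 7.57 to 14.1, 21.1 and 24.4 CPM in the Dicer experiment (adjusted p = 0.0551, edgeR). The groups did not overlap, although the lowest Dicer iKO library was close to the highest control. Kcnab3 did not pass the filter in either mutant comparison.

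Kcnk13, which encodes the two-pore domain channel THIK1 known from microglia, rose 2.21-fold in Dicer iKO nerves (17.8 ± 3.14 against 8.01 ± 0.852 CPM, adjusted p = 0.00751, edgeR). In Dgcr8 iKO nerves it was at 17.3 ± 2.49 against 9.52 ± 1.97 CPM, and in crushed nerves at 11.2 ± 1.54 against 7.75 ± 0.555 CPM in uncrushed nerves, in both cases under the 2-fold limit and without overlap of the groups. Kcna3 rose 2.79-fold in Dgcr8 iKO nerves (3.79 ± 0.592 against 1.34 ± 0.198 CPM, adjusted p = 0.00348, edgeR). It passed the filter there through the mutant libraries and would not have passed on the controls. In the Dicer experiment the control libraries ran from 0.811 to 3.30 CPM and overlapped the mutants at 2.93 to 3.86 CPM. The 10 macrophage markers summed to 354 to 1162 CPM in the Dicer controls and 3935 to 7152 in Dicer iKO, and to 348 to 411 in the Dgcr8 controls and 2619 to 6349 CPM in Dgcr8 iKO nerves. Of these markers 7 and 8 were called higher, and the part of macrophages in the rises of Kcnn4, Kcnk6, Kcnk13 and Kcna3 was not tested.

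Kcnj9, the G protein-gated channel subunit GIRK3, was called in both mutants and did not pass the filter after crush. In each mutant comparison Kcnj9 passed the filter through the mutant libraries alone, so a gene this low in both groups would not have been tested. Dicer iKO libraries held 23, 17 and 25 counts against 3, 0 and 0 in their controls, a ratio of 23.1 (95% exact interval for counting error 7.57 to 115). Dgcr8 iKO libraries held 22, 16 and 19 counts against 1, 2 and 1, a ratio of 13.2 (4.88 to 50). The antisense gene Gm36937 overlaps exons of Kcnj9 and was not listed in the iKO experiment, so reads of the pair cannot be told apart there unless the counting used strand. Kcna4, a rapidly inactivating Kv1 channel, held 33, 18 and 16 counts in Dgcr8 iKO and 0, 4 and 6 in control libraries, a ratio of 6.2 (3.17 to 13.5). Kcna4 too passed the filter there through the mutant libraries alone.

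The mutants also had lower members that crush did not call against both controls. In Dgcr8 iKO nerves these included Kcnf1, Kcnh1, Kcnh5, Kcnn2 and Kcnma1. Kcnh1 (EAG1) fell from 4.01, 6.94 and 2.38 to 1.06, 0.954 and 1.40 CPM, and Kcnf1, a silent subunit, from 3.67 ± 0.712 to 1.32 ± 0.259 CPM. Kcnh5 held 14, 24 and 23 counts in the controls against 4, 3 and 1 in the mutants (ratio 8.24, 3.93 to 20) and Kcnn2, a small-conductance calcium-activated channel, 15, 20 and 24 against 2, 7 and 2 counts (ratio 5.8, 3.02 to 12.2). Kcnh1, Kcnh5 and Kcnn2 passed the filter there through the control libraries and would not have passed on the mutant libraries. A gene this low in both groups would not have been tested. In Dicer iKO nerves libraries of Kcnh1, Kcnh5 and Kcnf1 overlapped the controls, and replicate 1 was the highest mutant library for Kcnh1 and Kcnh5.

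Kcnma1, the BK alpha subunit, was called lower in both mutants, at 2.30, 3.04 and 2.84 against 1.46, 1.04 and 0.692 CPM in the Dicer experiment (adjusted p = 0.0445) and at 1.65, 2.18 and 2.18 against 1.06, 0.668 and 0.933 CPM in the Dgcr8 experiment (adjusted p = 0.0319; edgeR). These libraries held 5 to 23 counts, and neither call was kept by DESeq2. In each experiment Kcnma1 passed the filter through the control libraries and would not have passed on the mutant libraries. Of the fits that left out a library, the Dicer call held without iKO replicate 1 alone and the Dgcr8 call in none, at log2 fold changes of -1.45 to -0.99. The neuronal marker list, which in a nerve can hold axonal RNA, summed to 88.7 to 96.8 CPM in the Dgcr8 controls and 14.7 to 16.6 CPM in the mutants, with 6 of 6 genes tested called lower. In the Dicer controls the list summed to 74.05 to 90.5 CPM, with 3 of 5 genes tested called lower in the mutants. Dicer iKO replicates 1, 2 and 3 were at 45.5, 17.6 and 19.8 CPM. The same list summed to 76.7 to 93.2 CPM in uncrushed and 17.2 to 22.4 CPM in crushed nerves. The part of axonal RNA in the falls of Kcnh1, Kcnh5, Kcnn2 and Kcnt1 was not tested.

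In the Dicer experiment the control libraries differed among themselves in several inward rectifiers. Kcnj13 (Kir7.1) was at 31.2, 28.8 and 5.54 CPM and Kcnj2 (Kir2.1) at 42.7, 35.6 and 13.2 CPM in the Dicer controls, and Kcnj13 was at 5.72, 13.5 and 8.17 CPM in the mutants. Replicate 3 of the controls was the low library in both genes, as it was for Kcnt1. The same library had the lowest summed fibroblast markers of its group, 4553 CPM against 14760 and 10960 CPM, and the lowest perineurial sum, 720.6 CPM against 1441 and 1100 CPM. Neither gene was called in either mutant with all libraries. Without control replicate 3, Kcnj13 was called lower in Dicer iKO nerves (log2 fold change -1.74, adjusted p = 0.00643, edgeR). Kcnj13 shares exon sequence with Gigyf2 on the other strand.

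Partners of the channels outside the Kcn symbols were read from lists. Of 17 juxtaparanodal, paranodal and scaffold genes, 6 were lower and 2 higher among 17 tested against uncrushed nerves, and 5 lower and 1 higher among 16 tested against contralateral nerves. Over all genes 21.1% were lower and 15.3% higher in the first comparison and 13.6% and 14.6% in the second. Cntnap2 (Caspr2), which holds Kv1 channels at the juxtaparanode, fell 2.78-fold and 2.08-fold, and Adam22, found at the same site, fell 4.05-fold against each. Cntn2 (TAG-1), the adhesion molecule that pairs with Caspr2, was called against uncrushed nerves alone and was low at 2.41 CPM there. Lgi2, a secreted ligand of ADAM22 family proteins, rose from 3.27 CPM in uncrushed and 1.92 in contralateral to 25.3 CPM in crushed nerves. In Dgcr8 iKO nerves Cntnap2, Nfasc and Cntn1 were lower and Adam23 and Lgi2 higher among 15 tested, and in Dicer iKO nerves Adam23 alone was called. The shares over all genes were 6.99% lower and 13.4% higher in Dgcr8 iKO and 1.64% and 7.37% in Dicer iKO nerves.

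Of 18 genes of the sodium pump and potassium-coupled cotransport, 8 were lower and 2 higher against uncrushed nerves, and 7 lower and 2 higher against contralateral nerves, beside the same shares of 21.1% and 15.3%, and of 13.6% and 14.6%, over all genes. Fxyd6 and Fxyd7, small regulators of the sodium pump, fell by 3.62 and 3.11 on the log2 scale against uncrushed nerves. Slc12a2, the sodium-potassium-chloride cotransporter NKCC1, fell 3.29-fold. Fxyd7 was lower in both mutants. Of 7 other auxiliary and related channel genes tested, 3 were lower (Dpp6, Dpp10 and Lrrc55) and 1 was higher against uncrushed nerves. Against contralateral nerves the log2 differences of these 3 were -0.95, -0.54 and 0.02 in this order, under the limit in size.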

How the data were processed

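The authors trimmed reads with Trimmomatic 0.33 and quantified them with RSEM 1.2.22 and STAR 2.5.1b on GRCm38. They deposited, per transcript and library, an expected count, a TPM and an FPKM value. The labels name SMARTer Stranded pico libraries for the crush experiment and TruSeq stranded libraries for the mutants, whereas the study's methods describe TruSeq. Here the expected counts of a gene's transcripts were added up and rounded, and deposited TPM and FPKM values were summed per gene. Genes passing filterByExpr (minimum count 10) were tested with edgeR 4.0.16 (TMM, quasi-likelihood) in R 4.3.3, separately for each comparison, on all genes, with Benjamini-Hochberg adjustment. CPM values were scaled by TMM over the libraries of one experiment. FPKM served to compare levels between genes, and TPM to rank members for naming. The fit was tested on simulated data. DESeq2 1.42.0 and other alternatives are given below.

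The members and lists were chosen with earlier results of these data known. Genes were named when called in one direction against both crush controls, when called in a mutant, when among the 5 highest by TPM in uncrushed nerves or in the pooled mutant controls, and Kcna1 and Kcna2 in any case. No member was named by the interaction term. Kcnma1's rank, the partner genes, Kcnk2, Kcnj2 and Kcnj13 were singled out after their values were seen. Of 27 pairs of libraries of one group none was a copy (chi-square per degree of freedom 3.86 to 40.3). The labels name separate nerves or mice only in part, so p-values measure the spread between these samples. Floors and intervals cover counting error only. RefSeq promoters (GRCm38.p6) were matched by symbol, for 69 of the 94 members. Some genes of these lists are not reported here.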

Additional observations from a re-analysis of the deposited data

Results flagged for a closer look

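In the named channel genes, the highest or lowest library of each group of 4 was compared with the rest by Dixon's ratio, in 58 groups, and 4 passed the 95% critical value of 0.829. Chance flags about 1 in 20 groups. Kcna6 was lowest in crushed replicate 4 (40.3 CPM), Kcnh1 was highest in crushed replicate 2 (1.79 CPM), and in contralateral replicate 4 Kcnj10 (5.95 CPM) and Kcnj9 (1.13 CPM) were highest. No called member changed direction in a fit without one of these libraries.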

How the results depend on the processing

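For the named genes, 1032 values were computed under the alternatives. None changed sign, 987 stayed on the same side of the limits and 45 lost the call, of which Kcnma1 accounted for 9 in the Dicer and 10 in the Dgcr8 experiment. Without a count filter 8 members instead of 5 were higher against contralateral nerves and 11 instead of 7 in Dgcr8 iKO nerves. With at least 10 counts in every sample there were 3 higher against contralateral nerves, 2 higher instead of 4 and 1 lower instead of 2 in Dicer iKO, and 6 lower instead of 11 in Dgcr8 iKO nerves. Lower calls in Dicer iKO nerves were 0 at an adjusted p of at most 0.01 and 5 with all groups in one fit. DESeq2 gave 1 lower member in the interaction fit. The cause of these shifts was not tested, apart from the fewer genes that a stricter filter tests.

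Leaving out one library gave 23 to 30 lower and 4 to 5 higher members against uncrushed nerves, 13 to 19 and 5 to 6 against contralateral nerves, 0 to 7 and 4 to 5 in Dicer iKO, 10 to 12 and 7 to 10 in Dgcr8 iKO nerves, and 0 to 1 lower and 0 to 2 higher in the interaction fit. The 0 calls between the controls stayed at 0. Crushed and contralateral nerves came from the same mice, but the labels do not say that a number marks a mouse, and the deviations of same-numbered libraries (correlations from -0.174 to 0.177) do not show whether it does. With the replicate block, Dicer iKO nerves had 0 lower and 3 higher members, and the counts in the other comparisons were 27 and 4, 14 and 5, and 11 and 7 lower and higher.

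Members near the floor cannot be resolved at this depth, and 32 were not tested.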

Other observations

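The 5 non-coding genes with Kcn symbols were listed in the crush experiment. Kcnq1ot1, the long antisense transcript of the imprinted Kcnq1 locus, was the most abundant, at 422 ± 108 CPM in uncrushed (SD, n = 3), 311 ± 47.1 in contralateral and 220 ± 16.7 CPM in crushed nerves (n = 4 each). The difference from uncrushed nerves was 1.77-fold (adjusted p = 0.000325, edgeR) and was not called at the 2-fold limit. Kcnq1 itself was at 1.11 CPM in crushed and 0.814 CPM in uncrushed nerves.

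Kcnmb4os2, one of the antisense genes over Kcnmb4, was at 1.36 ± 0.0137 CPM in uncrushed, 1.45 ± 0.246 in contralateral and 0.304 ± 0.109 CPM in crushed nerves, and was called lower against both controls (4.07-fold and 4.64-fold, adjusted p = 0.000764 and 7.48e-05, edgeR). Kcnmb4os1, Kcnd3os and Kcnab3os stayed under 1 CPM in every library.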
